A study of Mus musculus with 6 samples.

Results

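The genes described are 10 phosphodiesterases that break down cAMP: Pde3a, Pde3b, Pde4a, Pde4b, Pde4c, Pde4d, Pde7a, Pde7b, Pde8a and Pde10a. They were chosen by name, and the platform annotation gave 9 of the 10 a probe set, among 19505 genes in all. Pde4d was not analysed here, because no probe set carries its symbol in the annotation used. Each of the 9 had a single probe set.

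Transcripts were measured in 393P cells, a line from a mouse lung adenocarcinoma, called 9393P in some labels. One group of 3 samples stably carried an AC9 construct and the other group of 3 the empty VECTOR. All cells grew in RPMI with fetal bovine serum and were selected with puromycin or G418. The labels do not say which drug each group received, which promoter drives the construct or whether the cells are clones or pools. A difference of drug or of selected cells cannot be told apart from an effect of AC9.

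Cyclic AMP is made by adenylyl cyclases and acts through protein kinase A, the EPAC exchange factors and other sensors. Phosphodiesterases are the enzymes that end the signal, by opening the cyclic phosphate ring to give AMP. The families differ in where they sit in the cell, in whether they also take cGMP, and in which drugs block them. PDE3 and PDE4 enzymes are the major cAMP-degrading activities of many cells, the airway included, and protein kinase A can phosphorylate members of both families, which closes a feedback loop.

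Values are log2 intensities, and a level is compared only between groups for 1 gene, never between genes. As a bound for dim signals, the 90th percentile of the negative control probe sets was taken, 6.06 on average over the arrays. Adcy9, the gene that the reference table lists under the synonym AC9, read 6.12, 6.09 and 6.15 in VECTOR cells and 6.78, 6.60 and 6.82 in AC9 cells (log2 change 0.61, SE 0.10, limma adjusted p 0.00264). All 7 epithelial markers examined (Epcam, Cdh1, Krt8, Krt18, Krt19, Cldn4 and Cldn7) lay above the bound in at least 1 group. The 4 measured lung lineage markers, among them Nkx2-1 and Sftpc, lay under it in both groups, as did the 3 leukocyte and 4 endothelial markers, while 1 of 4 fibroblast and pericyte markers, Col1a1, lay above it. The median log2 intensity of all genes was 6.42 to 6.46 per array.

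Among the 9 measured phosphodiesterases, Pde3b was higher in the AC9 cells and Pde7b lower, and Pde10a passed the test from a signal under the bound in both groups. The other 6 did not pass an adjusted p of 0.05. Over all genes, 17.6% passed (8.26% higher and 9.29% lower), and the median log2 change of the 9 was 0.08 against 0.02 over all genes. Pde8a and Pde10a lay under the bound in both groups. Of the remaining 7, 2 passed, against 28.7% of the 10859 genes with at least 1 group above the bound. With counts this small beside such a background, the results are those of single genes and not of the family.

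**Figure D1:**
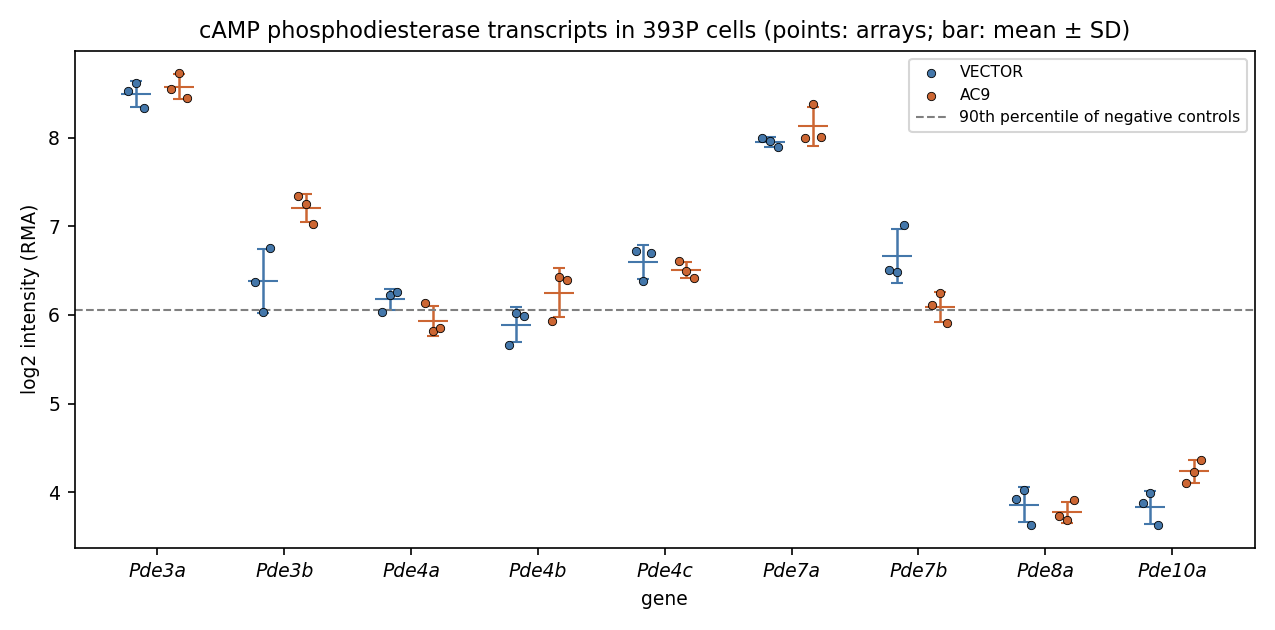
Log2 intensity (vertical axis) of the 9 measured cAMP phosphodiesterase genes on the 3 VECTOR and 3 AC9 arrays; points are arrays, bars the mean ± SD (n = 3), and the dashed line the negative-control bound of 6.06. Pde3b (AC9 above VECTOR), Pde7b (AC9 below VECTOR) and the dim Pde10a are the genes whose groups do not overlap.

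The PDE3 enzymes take cAMP with high affinity and are slowed by cGMP. Pde3b encodes the membrane-associated form, known for carrying the insulin signal that restrains lipolysis in fat cells. It read 6.37, 6.03 and 6.76 in VECTOR and 7.34, 7.25 and 7.03 in AC9. All AC9 values lay above all VECTOR values, and the VECTOR arrays were the more scattered (6.39 ± 0.36 against 7.21 ± 0.16, SD, n = 3). Among all genes, 35.1% had groups that did not overlap, 17.3% with AC9 higher and 17.7% with AC9 lower.

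Pde3b rose by 0.82 on the log2 scale (SE 0.17, 95% interval 0.44 to 1.21, limma adjusted p 0.0103), or 1.77-fold. It ranked 560 of 19505 genes by the size of the change. The arrays measure RNA from whole cultures. A change in how many cells carry a transcript and a change in its amount per cell cannot be told apart, here or below. Without any 1 of the 6 arrays the change stayed between 0.65 (without VECTOR replicate 2) and 1.01 (without VECTOR replicate 3), and the adjusted p reached at most 0.0434 (without AC9 replicate 1).

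Pde3a, the form of heart, vessels and platelets, did not pass the test. It read 8.52, 8.62 and 8.34 in VECTOR and 8.55, 8.73 and 8.45 in AC9. The groups overlapped, with a log2 change of 0.08 (95% interval -0.17 to 0.34, limma adjusted p 0.684). This interval leaves room for a rise of up to 1.26-fold or a fall to 0.887 of the VECTOR level.

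Both PDE3 genes can be set against each other on the same array. The within-array difference Pde3b minus Pde3a was -2.15, -2.59 and -1.58 in VECTOR and -1.20, -1.47 and -1.42 in AC9. It was higher on every AC9 array, by 0.74 on the log2 scale. The exact two-sided permutation p was 0.10, the smallest that 3 arrays against 3 can give, and 0.167 after Benjamini-Hochberg adjustment over the 5 pairs of family members compared. The difference is between probe sets and is not a ratio of transcript levels.

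PDE4 enzymes are specific for cAMP and are the targets of rolipram and roflumilast. Pde4b, the form tied to inflammatory signalling in leukocytes, read 5.66, 6.02 and 5.99 in VECTOR and 5.94, 6.43 and 6.39 in AC9. AC9 replicates 2 and 3 were above every VECTOR array, while AC9 replicate 1 lay among them. The log2 change was 0.36 (SE 0.15, 95% interval 0.02 to 0.71, unadjusted p 0.0423), and the limma adjusted p of 0.147 did not pass. Its VECTOR mean of 5.89 was under the bound, so no fold is given. Without AC9 replicate 1 the gene did pass, at a log2 change of 0.52 and an adjusted p of 0.0449. It did not pass without any other single array. The log2 change was then 0.25 (without VECTOR replicate 1, limma adjusted p 0.364) to 0.42 (without VECTOR replicate 2, 0.155).

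Pde4a pointed the other way without passing the test. It read 6.04, 6.23 and 6.26 in VECTOR and 6.13, 5.82 and 5.85 in AC9, with a log2 change of -0.24 (95% interval -0.50 to 0.02, limma adjusted p 0.200). Here the AC9 mean of 5.94 was under the bound. Pde4c read 6.72, 6.38 and 6.70 in VECTOR and 6.61, 6.50 and 6.42 in AC9. Its groups overlapped throughout (log2 change -0.09, 95% interval -0.35 to 0.17, adjusted p 0.661).

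Within arrays, the difference Pde4b minus Pde4a was -0.37, -0.21 and -0.26 in VECTOR and -0.20, 0.61 and 0.54 in AC9. AC9 replicate 1 was barely above the highest VECTOR array and the other 2 AC9 arrays were well above it. The shift of 0.60 had an exact permutation p of 0.10 (0.167 over the 5 pairs), and both genes lay near the bound. Pde4b minus Pde4c shifted by 0.45 (exact permutation p 0.20, 0.25 adjusted) and Pde4a minus Pde4c by -0.15 (0.50, 0.50 adjusted), both with overlapping groups.

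The PDE7 enzymes are specific for cAMP, bind it tightly and are not blocked by rolipram. Pde7b read 6.50, 6.48 and 7.02 in VECTOR and 6.11, 6.25 and 5.91 in AC9. Every AC9 array was below every VECTOR array, VECTOR replicate 3 stood highest, and AC9 replicates 1 and 3 were under the bound of their own array. Pde7b fell by 0.58 on the log2 scale (SE 0.16, 95% interval -0.93 to -0.23, limma adjusted p 0.0323), a 1.49-fold difference. Its AC9 mean of 6.09 ± 0.17 (SD, n = 3) lay at the bound, just above the 6.06 over all arrays and at the 6.09 of the AC9 arrays alone, so the fold may be too small.

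The call of Pde7b depended on single arrays. It was lost without VECTOR replicate 3 (log2 change -0.40, adjusted p 0.0651), AC9 replicate 1 (-0.59, 0.0819) or AC9 replicate 3 (-0.49, 0.106). Background probe sets, meant to match no transcript, also read lower in AC9: 19 of 23 did so without overlap, with a median difference of -0.06 and a lowest of -0.50. The 90th percentile of the 5222 negative control probe sets ran the other way, with a mean of 6.03 over the VECTOR arrays and 6.09 over the AC9 arrays and every AC9 array above every VECTOR array. The part of either in the fall of Pde7b was not tested.

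Pde7a read 8.00, 7.97 and 7.90 in VECTOR and 8.00, 8.38 and 8.01 in AC9. AC9 replicate 2 stood above the other 5 arrays, and the log2 change of 0.17 did not pass (95% interval -0.10 to 0.44, limma adjusted p 0.383). The within-array difference Pde7b minus Pde7a was -1.50, -1.49 and -0.88 in VECTOR and -1.89, -2.13 and -2.10 in AC9. It was lower on every AC9 array, by -0.75 on the log2 scale (exact permutation p 0.10, 0.167 over the 5 pairs).

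**Figure D2:**
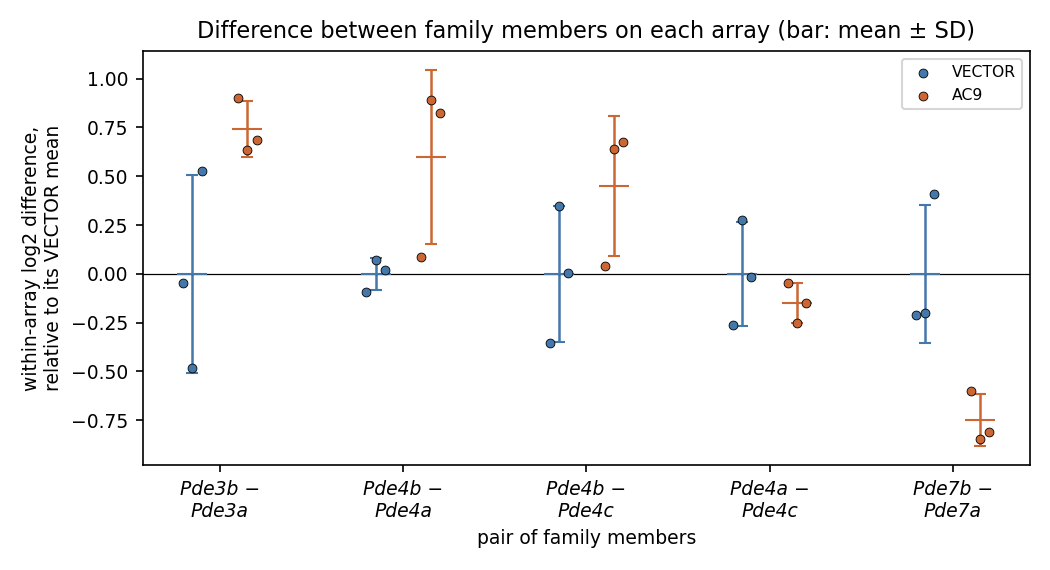
Within-array log2 difference between members of a family (vertical axis), drawn relative to its VECTOR mean, for 5 pairs; points are arrays and bars the mean ± SD (n = 3). The AC9 arrays lie above all VECTOR arrays for Pde3b minus Pde3a (shift 0.74) and Pde4b minus Pde4a (0.60), and below them for Pde7b minus Pde7a (-0.75). For Pde4a minus Pde4c they lie among the VECTOR arrays. For Pde4b minus Pde4c, AC9 replicates 2 and 3 lie above all VECTOR arrays and AC9 replicate 1 among them.

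Pde8a, a high-affinity enzyme not blocked by the general inhibitor IBMX, read 3.92, 4.02 and 3.64 in VECTOR and 3.73, 3.69 and 3.91 in AC9. Pde10a, which takes both cAMP and cGMP and is best known from the striatum, read 3.88, 3.99 and 3.63 in VECTOR and 4.10, 4.23 and 4.37 in AC9. The Pde10a groups did not overlap and its limma adjusted p was 0.0472, but with both groups far under the bound no size of change is given. The call of Pde10a was lost in 7 of 13 alternative fits, among them 5 of the 6 that left out 1 array (all but that without VECTOR replicate 2), with an adjusted p of up to 0.151.

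Upstream sequence was available for 7 of the 10 genes, from a RefSeq table of the build GRCm38.p6, with 13 start sites among them; Pde3a, Pde3b and Pde7a had no entry. CREB, the transcription factor activated by protein kinase A, binds the element TGACGTCA and, less tightly, its core TGACG. In the 250 bases before each start, the core was searched on both strands (TGACG or CGTCA, which also occur inside the whole element). It stood before 3 of the 13 starts, against 17.8% of all 32851 starts in the table. The whole element stood before 0 of the 13, against 1.55% of all starts. The matches are shown because they are the places where the members carry the core, which is in capitals; each is 5′ to 3′ on the gene's strand.
Pde4b, chr4:102421503-102421543, plus strand: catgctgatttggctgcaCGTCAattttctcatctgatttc
Pde4a, chr9:21184033-21184073, plus strand: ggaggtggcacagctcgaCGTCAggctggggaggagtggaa
Pde8a, chr7:81213163-81213203, plus strand: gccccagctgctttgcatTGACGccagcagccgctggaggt

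The core began 34 bases before the first of the 4 Pde4b starts in the table, 50 bases before the second of the 3 Pde4a starts and 84 bases before the Pde8a start. None of these 3 genes passed the test. Pde7b had 1 start and no match in its window; the 100 bases before that start are shown because it was the member with a table entry that passed the test with a mean above 6.06.
Pde7b, chr10:20548329-20548428, minus strand: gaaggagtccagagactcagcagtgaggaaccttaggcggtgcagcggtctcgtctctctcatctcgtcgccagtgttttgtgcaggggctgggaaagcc
A match is a string of letters and not a bound site, and a start without one says only that these letters are not in this window.

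The other phosphodiesterase genes of the array give the wider family. Of 14 measured, 1 rose and 2 fell, where 17.6% of all genes passed (8.26% higher and 9.29% lower). Under the bound in both groups lay 10, among them Pde1a, Pde1b, Pde1c, Pde2a, Pde8b and Pde11a, which can take cAMP. Their median log2 change was -0.04. The 3 that passed do not act on cAMP. Pde5a, the cGMP-specific enzyme blocked by sildenafil, read 8.46, 8.60 and 8.79 in VECTOR and 9.11, 9.35 and 9.20 in AC9.

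Pde5a rose by 0.60 (SE 0.12, limma adjusted p 0.00668), or 1.52-fold, with every AC9 array above every VECTOR array. Pde9a, the cGMP-specific enzyme of highest affinity, went the other way. It read 7.33, 7.49 and 7.41 in VECTOR and 6.64, 6.88 and 6.64 in AC9, with a log2 change of -0.69 (SE 0.10, adjusted p 0.00212) and no overlap. Pde6d, a carrier of prenylated proteins with no catalytic part, changed by -0.40 (adjusted p 0.0192). It lost its call without VECTOR replicate 1 (0.0642) or 2 (0.0514) and without AC9 replicate 2 (0.0693) or 3 (0.0571).

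**Figure D3:**
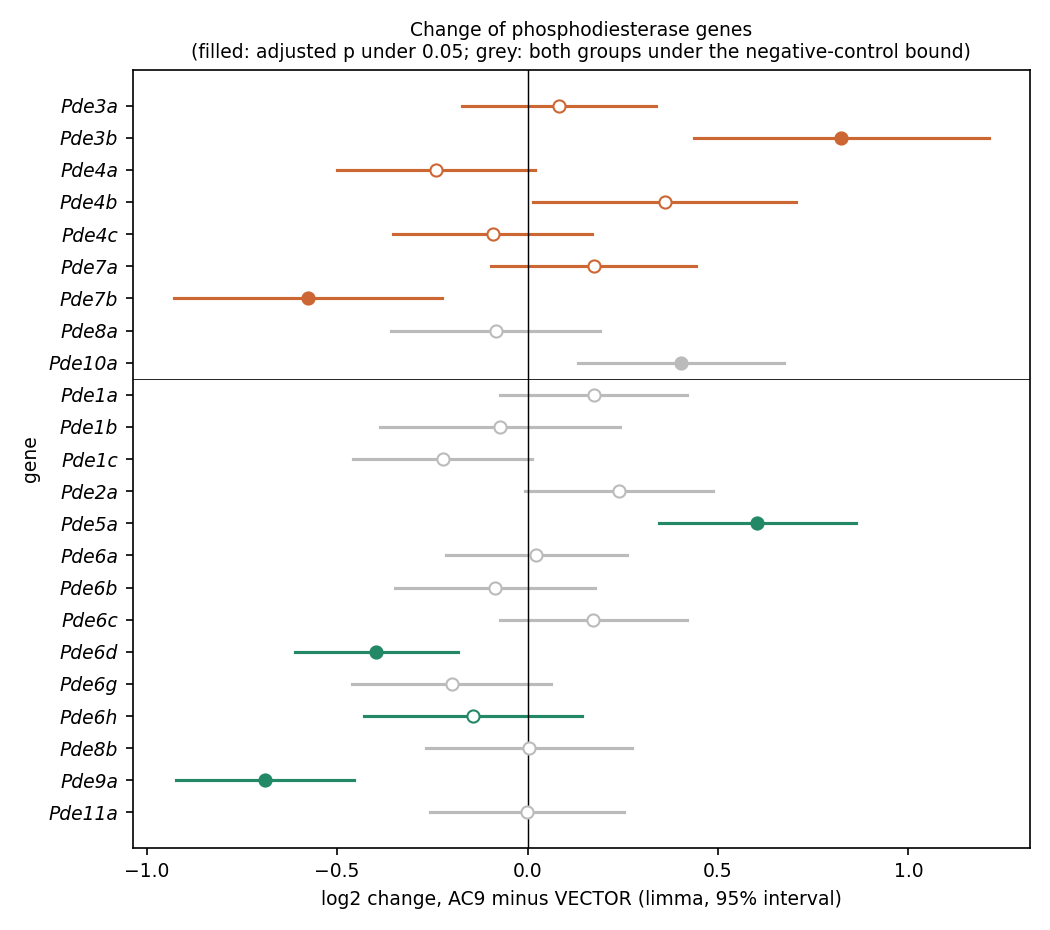
Log2 change, AC9 minus VECTOR, with its 95% limma interval (horizontal axis) for the 9 listed cAMP phosphodiesterases (above the line) and 14 other phosphodiesterase genes (below it); filled points have an adjusted p under 0.05, and grey marks genes with both groups under the negative-control bound. Pde3b (0.82) and Pde5a (0.60) lie furthest to the right, Pde9a (-0.69) and Pde7b (-0.58) furthest to the left.

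The rest of the pathway was read from the same fit. Of 13 measured cAMP effectors and protein kinase A genes, 3 fell and 0 rose (1 higher and 4 lower at an unadjusted p under 0.05 by limma; median -0.01). Over all genes, 17.6% passed after adjustment and 30.3% had an unadjusted p under 0.05. Prkar2b, a regulatory subunit that holds the kinase inactive until cAMP binds, changed by -0.71 (SE 0.09, adjusted p 0.000730). Prkaca, the main catalytic subunit, changed by -0.56 (adjusted p 0.00498) and Pkia, a peptide inhibitor of that subunit, by -0.52 (0.00762). For all 3, every AC9 array lay below every VECTOR array, as it did for 17.7% of all genes.

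Of 16 measured anchors and partners of phosphodiesterases, 0 rose and 1 fell (1 and 1 at an unadjusted p under 0.05 by limma, against 30.3% of all genes; median 0.03). The gene that fell was Arrb1, beta-arrestin 1, which brings PDE4 enzymes to activated receptors. It read 7.33, 7.44 and 7.64 in VECTOR and 7.09, 6.90 and 6.71 in AC9 (log2 change -0.57, SE 0.13, adjusted p 0.0129), again without overlap. The measured AKAP genes, which tether protein kinase A and often a phosphodiesterase, did not pass the test.

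Of the 10 adenylyl cyclases, only Adcy9, the gene listed under the synonym AC9, passed the test, where 17.6% of all genes passed. Under the bound in both groups lay 8, and the remaining one, Adcy6, did not pass (log2 change -0.20, limma adjusted p 0.210). Of 12 measured CREB-inducible early genes, 1 rose and 0 fell (1 and 1 at an unadjusted p under 0.05 by limma, against 30.3% of all genes; median -0.05). Fosb, an AP-1 subunit, rose by 0.52 (SE 0.10, adjusted p 0.00629), while Nr4a1 and Fos read changes of -0.10 and -0.12 that did not pass (adjusted p 0.519 and 0.590). Dusp1 was the gene lower at an unadjusted p under 0.05 (log2 change -0.24, limma unadjusted p 0.0278, adjusted p 0.110).

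**Figure D4:**
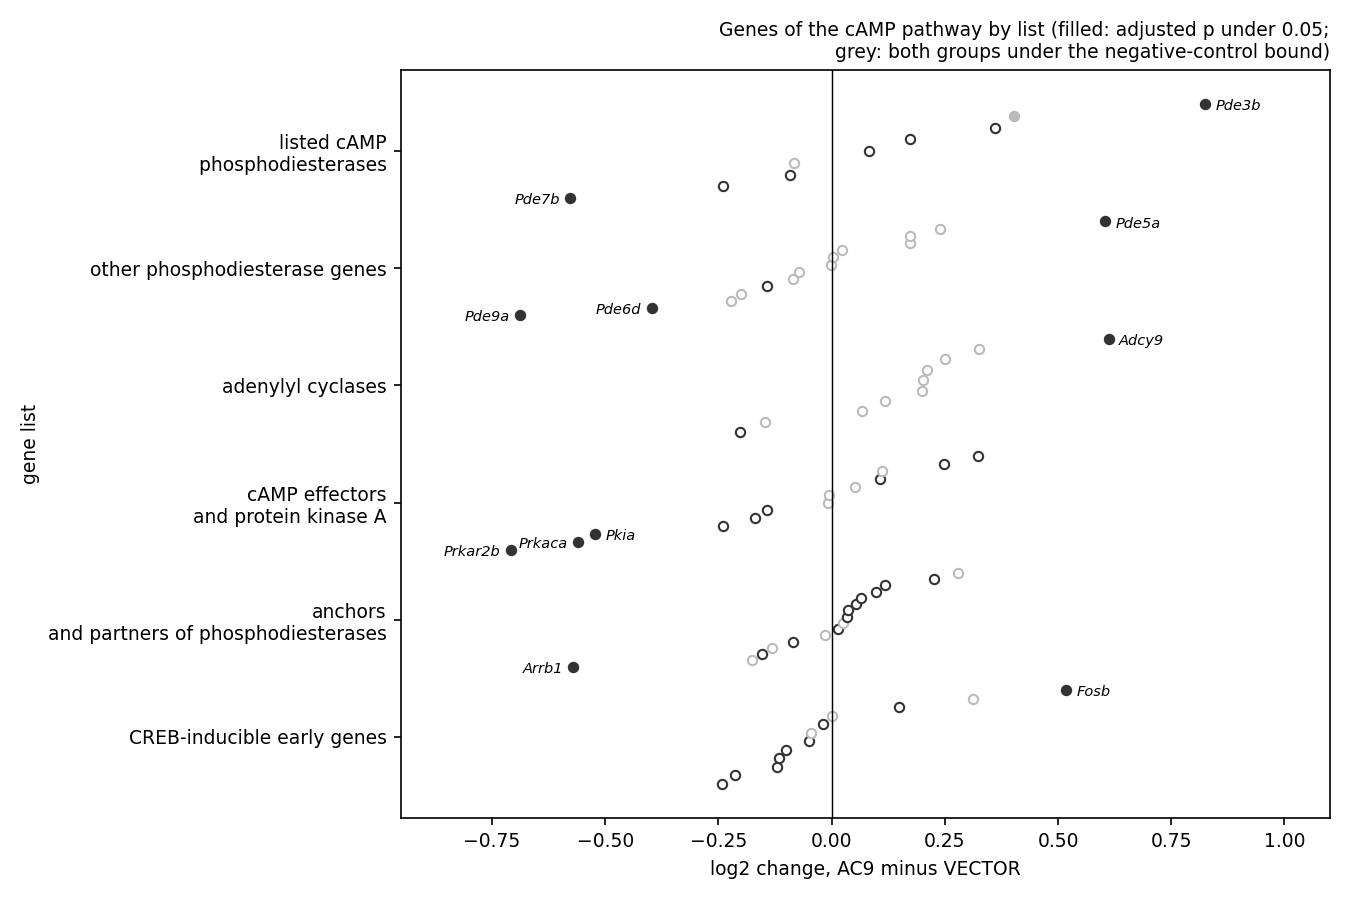
Log2 change, AC9 minus VECTOR (horizontal axis), of each measured gene in 6 gene lists (vertical axis), with points within a list ordered by change. Filled points have an adjusted p under 0.05 and grey marks genes with both groups under the negative-control bound. The list of other phosphodiesterase genes holds some that do not act on cAMP, Pde9a among them. The named points are the genes that passed above the bound, from Prkar2b (-0.71) and Pde9a (-0.69) to Pde3b (0.82).

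For each of the 3 listed cAMP phosphodiesterases past the threshold, the 2 genes with the most similar profile over the 6 arrays were found, by the root mean square distance between log2 values centred on each gene's mean. For Pde3b they were Cpne8, a copine (distance 0.07, log2 change 0.93), and Cep192, a centrosome scaffold (0.08, 0.79). For Pde7b they were Serpinb1a, a protease inhibitor (0.07), and Ttc30b (0.08), but the AC9 mean of the first and both means of the second were under the bound. For Pde10a they were Svs6, under the bound in both groups (0.03), and Top2b, a type II topoisomerase (0.04, log2 change 0.45). With 19505 genes and 6 arrays in 2 groups, this distance takes in the difference between the groups as well as the spread within them.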

How the data were processed

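The deposited values were log2 intensities per probe set from Affymetrix Clariom S arrays, 1 array per sample, which the submitters' processing notes say came from RMA. Its software, summary level and build were not given in the sources used here. Controls left aside, 22206 of 28846 probe sets remained, and 19572 had a gene symbol in GEO's platform annotation, 0 had several, and 2634 are unnamed here; 55 genes had several probe sets, and the one with the highest mean was taken. All 19572 matched the RefSeq table (GRCm38.p6) by gene number.

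The fit of AC9 against VECTOR used limma 3.58.1 under R 4.3.3 (constant prior, two-sided, no filter), with Benjamini-Hochberg adjustment over 19505 genes. The code was tested on simulated data. The samples' separate origin is not stated, so p-values reflect the spread between these samples alone, possibly a technical one, and their number limits the precision. The phosphodiesterases and the lists were chosen with earlier results of these data known. Named were all members, of each other list up to 4 genes past the threshold, Adcy9, and the 2 nearest profiles. Nr4a1, Fos, Dusp1 and Adcy6 were named after their values were seen. Alternatives were other priors, normalizations, filters, probe set rules, array weights, a replicate block, a threshold of 0.01 and each array left out.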

Additional observations from a re-analysis of the deposited data

Results flagged for a closer look

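In the 2634 probe sets left out for want of a gene symbol here, limma called 149 higher in the AC9 cells and 126 lower (adjusted p under 0.05, fitted together with the named probe sets). Of the 19505 named genes, 17.6% passed in their own fit (8.26% higher and 9.29% lower). The unnamed probe sets lie outside the comparison, and whether any of them reads Pde4d, which was not analysed here, was not tested.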

How the results depend on the processing

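The directions of the 9 phosphodiesterases and of the 5 differences between family members were kept under every alternative that gave them a value. The other prior, the filter, the probe set rules, the replicate block and the threshold could not change a direction, because they left these log2 changes as they were. Without 1 array, some changes came close to none: 0.004 for Pde3a (without VECTOR replicate 3) and -0.004 for the dim Pde8a (without VECTOR replicate 2). Pde3b kept its call at 0.05 in all 14 alternatives (adjusted p 0.000258 to 0.0434) and Pde7b in 10 of 14 (0.00741 to 0.106). At an adjusted p of 0.01, 1670 genes passed in all, 0 cAMP phosphodiesterases (4 at an unadjusted p under 0.05 by limma) and 0 anchors and partners (2 unadjusted), where 30.3% of all genes had an unadjusted p under 0.05. With dim genes left out, 5 of 9 cAMP effectors and 2 of 10 CREB-inducible genes passed, against 4307 of all 11703 genes kept. The trended prior called 2 of 12 CREB-inducible genes, against 4674 of all 19505. With arrays centred on their median, 2 of 10 adenylyl cyclases passed, both higher, against 3511 of all 19505. Leaving out 1 array at a time gave 2174 to 3025 genes, 1 to 3 cAMP phosphodiesterases and 1 to 2 adenylyl cyclases (2 without AC9 replicate 3, both higher). The second cyclase called higher in these fits lay under the bound in both groups, as Adcy6 read lower in AC9. With arrays centred on their median, the split of all calls was 1861 higher and 1650 lower, against 1612 and 1812. Deviations from the group means correlated little between same-numbered samples (0.01, 0.08 and 0.01), and by -0.09 to 0.09 between differently numbered ones. With 3 samples per group, this cannot tell whether same-numbered samples were handled together. The replicate block gave 3062 genes; Pde7b and Pde10a lost their call under it (adjusted p 0.0544 and 0.0737) and Pde4b gained one (0.0457). Signal near background limits Pde4a, Pde4b, Pde7b and Adcy9.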
